A study of Mus musculus with 7 samples.

Results

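The genes examined here are 34 mouse genes of the ATF4 response and of serine and one-carbon synthesis, taken by symbol from a fixed list out of 55414 gene identifiers in the count table. Bulk RNA-seq had been performed on Paneth cells (PCs), the granulated secretory cells of the small intestinal crypts, purified with a cell sorter from C57BL/6J mice. The libraries came from 3 mice injected with PBS, the control, and from 4 mice that received TNF, a cytokine that drives inflammation. All 7 mice were of the same strain with no allele or further agent named, cells were taken 15 h after the injection, and every library stands for its own mouse according to the submitters. The sources used here do not give the dose of TNF, the age and sex of the mice, the intestinal segment, the sorting antibodies or any batch.

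ATF4 is a transcription factor whose protein is made when the initiation factor eIF2 is phosphorylated, a state reached when kinases such as GCN2 sense a lack of amino acids or when other stresses are met. It binds to a short DNA element together with C/EBP-family partners and drives genes for amino acid synthesis and uptake, among them the 3 enzymes that make serine from a glycolytic intermediate. Serine then gives up a carbon to folate, in mitochondria or in the cytosol, and the resulting one-carbon units feed the synthesis of purines, thymidylate and methionine. ATF4 is controlled largely at the level of translation, so mRNA counts do not report its protein.

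The library totals ran from 15511455 to 19193721 counts. Levels are given as CPM, counts per 1000000 counts of the TMM-scaled library size, and changes as log2 fold changes of TNF against PBS with their standard error (SE) from edgeR's quasi-likelihood test. A gene is called at a Benjamini-Hochberg adjusted p under 0.05 over all 14329 genes tested. The PC product genes were abundant in every library, as 117168, 87228 and 85149 CPM of Lyz1 after PBS and 90261, 123639, 105477 and 155547 CPM after TNF show. Of 8 PC markers, Mmp7 rose by 0.88 ± 0.21 on the log2 scale, Clps and Habp2 fell by 2.27 ± 0.43 and 1.26 ± 0.16 (edgeR adjusted p = 0.00223, 0.00263 and 1.02e-05) and the other 5 were not called. Erythroid, stromal and endothelial markers were near 0, with summed levels of at most 0.458 CPM over either list, and Cd3e, Col1a2 and 4 globin genes had 0 counts in every library. Of 4 leukocyte markers tested (of 6), 1 was called lower after TNF, and the summed level of the 6 ran from 24.9 to 33.2 CPM after PBS and from 16.0 to 26.5 CPM after TNF. Markers of other epithelial cells were present, and in a bulk sample fewer cells of a type and less RNA per cell cannot be told apart. Their summed level fell from between 1180.0 and 1931 CPM after PBS to between 203 and 522 CPM after TNF for 6 tuft cell markers (6 called lower), and from between 45.6 and 136.9 CPM to between 6.60 and 10.1 CPM for 8 enterocyte markers (5 of 6 tested called lower). The 6 goblet cell markers summed to between 10434 and 19241 CPM after PBS and between 8770 and 9839 CPM after TNF (4 lower), and the 6 stem cell markers to between 3467 and 4785 CPM and between 1971 and 2717 CPM (5 lower). Muc2 and Spink4, the goblet cell markers with the highest mean levels in both groups, were not called. The 4 called lower fell by between 4.40-fold (Tff3) and 49.1-fold (Fcgbp), which the sum hides. The 6 enteroendocrine markers ranged from 14.6 to 69.0 CPM and from 10.6 to 19.7 CPM (1 lower). The part of these cell types in the results below was not tested.

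Most members changed after TNF, and more rose than fell: the serine synthesis genes Phgdh, Psat1 and Psph and the stress genes Gdf15, Atf5, Nupr1 and Ppp1r15a rose by at least 3.80-fold, whereas Cbs and Gpt2 fell by more than 2-fold. Of the 34 members, 32 passed the filter on low counts, and 26 of these were called, where the share called over all tested genes was 59.6%. In detail, 18 rose, against a share of 29.5% of all tested genes, and 8 fell, against 30.1%. Among those called, 12 members rose by 2-fold or more (14.4% of all tested genes did) and 2 fell by as much (17.2%). The libraries of the groups did not overlap for 25 members, where the share among all tested genes was 60.7%. The median log2 fold change was 0.68 over the tested members and 0.00 over all tested genes. Scaling by total counts alone moved the median of all tested genes to -0.16 and left the 18 rises called.

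The element bound by ATF4 and its partners was looked for in the promoters, since many of the members are known as targets of this factor. The C/EBP-ATF response element was searched as TGATGNAAN on both strands of the 300-base windows that RefSeq (GRCm38.p6) gives around gene starts, from 250 bases before to 50 bases after the start. Of 31 members with a window, 8 held it (25.8%), compared with 1215 of 27025 genes with a window (4.5%). The stricter form TGATGCAAT, whose matches are also matches of the first, was present in Fgf21, Nupr1 and Pycr1, against 0.222% of all genes. Positions are those at which the windows matched GRCm39 exactly, and the RefSeq starts lay within 34 bases of an annotated transcript start. The bases upstream of 2 of these 3 genes are shown in full, because Nupr1 rose and Pycr1 fell after TNF although both windows hold the same 9 letters. They are written 5′ to 3′ on the strand of the gene, with the element in capitals, at chr7:126224643-126224892 (minus strand) and chr11:120534575-120534824 (minus strand).
Nupr1: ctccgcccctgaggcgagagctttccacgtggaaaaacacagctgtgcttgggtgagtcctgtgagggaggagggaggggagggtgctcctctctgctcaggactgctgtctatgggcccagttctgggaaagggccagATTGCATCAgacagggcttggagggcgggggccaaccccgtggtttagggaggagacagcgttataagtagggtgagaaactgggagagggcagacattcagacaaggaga
Pycr1: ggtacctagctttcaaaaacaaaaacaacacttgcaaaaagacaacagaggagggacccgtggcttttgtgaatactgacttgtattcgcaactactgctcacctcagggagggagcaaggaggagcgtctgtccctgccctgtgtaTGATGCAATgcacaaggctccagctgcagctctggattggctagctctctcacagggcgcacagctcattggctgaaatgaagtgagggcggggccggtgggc
In Nupr1 the element lay in reverse orientation and began 111 bases before the start, and in Pycr1 it lay forward and began 103 bases before the start.

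The other 6 matches are shown with 10 bases on each side, so that the variable letters of the element can be compared. They lie at chr2:119181519-119181547 (plus strand, Chac1), chr2:152185949-152185977 (minus, Trib3), chr6:7693214-7693242 (minus, Asns), chr7:45265036-45265064 (minus, Fgf21), chr19:27194209-27194237 (plus, Vldlr) and chr19:43513129-43513157 (minus, Got1).
Chac1: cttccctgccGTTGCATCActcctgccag
Trib3: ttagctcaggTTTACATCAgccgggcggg
Asns: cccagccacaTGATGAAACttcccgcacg
Fgf21: agacccccccATTGCATCAtccgtccagg
Vldlr: agcagcaataGTTGCATCAgcgctcctag
Got1: cattgcattgGTTGCATCAtacaagcctc
The match in Trib3 lies 13 bases after the start and the others before it. Of the 8 members with the element, Nupr1, Asns, Trib3, Vldlr and Got1 rose, Pycr1 fell, Chac1 was not called and Fgf21 was not tested. The serine synthesis genes Phgdh, Psat1 and Psph had no match in their windows, which says only that these letters are not there. The cAMP response element TGACGTCA, a palindrome, was found in 1 member, Ppp1r15a, and in 2.03% of all genes. Its match lies at chr7:45175687-45175714 on the minus strand.
Ppp1r15a: gcctctccggTGACGTCAgcacagcgcc

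All 3 genes of serine synthesis rose, by 3.80 to 5.11-fold, and in each of them every TNF library was above every PBS library. Over all tested genes 29.5% rose, and 60.7% had groups without overlap in either direction. Phgdh (ENSMUSG00000053398, chromosome 3, 98220484 to 98255047 on GRCm39) encodes the dehydrogenase that commits 3-phosphoglycerate to serine. Its level was 15.4, 22.1 and 15.1 CPM after PBS and 73.5, 105, 85.4 and 95.4 CPM after TNF. The means were 17.5 ± 3.95 CPM (SD, n = 3) and 89.8 ± 13.4 CPM (SD, n = 4). Phgdh thus rose by 2.35 ± 0.16 (SE) on the log2 scale (edgeR adjusted p = 5.92e-08). Psat1 (ENSMUSG00000024640, chromosome 19, 15882039 to 15924701) encodes the transaminase of the second step, and it was the most abundant of the 3 per length in both groups, at 19.8 CPM per kb of transcript after PBS and 91.5 CPM per kb after TNF. It had 53.4, 61.2 and 41.3 CPM after PBS and 172, 255, 223 and 309 CPM after TNF. Every TNF library was at least 2-fold above every PBS library, TNF replicate 1 by the least, with a log2 fold change of 2.21 ± 0.20 (edgeR adjusted p = 1.66e-06). Psph (ENSMUSG00000029446, chromosome 5, 129841925 to 129864513) encodes the phosphatase that releases serine. It was the least abundant of the 3, with 6.61, 9.11 and 5.09 CPM after PBS and 20.8, 28.2, 24.7 and 32.3 CPM after TNF, and rose by 1.93 ± 0.21 on the log2 scale (edgeR adjusted p = 3.61e-06). Exons of Psph overlap those of Cct6a on the other strand, which had 19614 counts against 2186 for Psph and a log2 fold change of 0.80. Since the strand setting is not stated, reads of such partners cannot be told apart with certainty. Exon bases were shared with another gene of the table in 17 members, and for 8 of them the partner had at least 10% of the counts of the member.

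**Figure D1:**
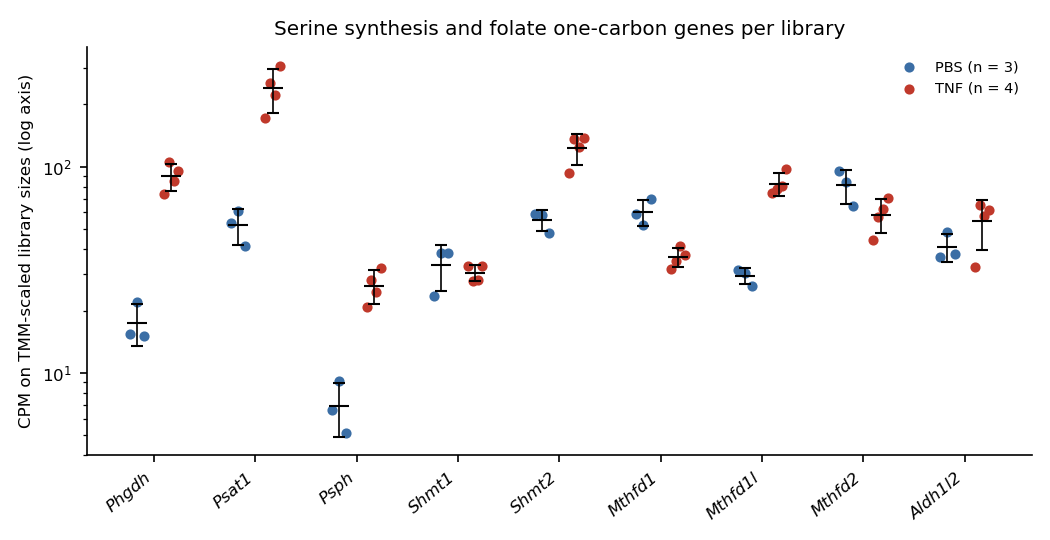
Level of the 3 serine synthesis genes and the 6 folate enzymes in CPM (vertical log axis) in each library, with PBS in blue (n = 3) and TNF in red (n = 4); black marks show the mean and SD. The groups are apart for Phgdh, Psat1, Psph, Shmt2, Mthfd1 and Mthfd1l, and overlap for Shmt1, Mthfd2 and Aldh1l2.

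Of the 6 folate enzymes, 2 rose, 2 fell and 2 were not called, shares near those of all tested genes (29.5% rose and 30.1% fell), and their median log2 fold change was 0.14. The genes that rose encode mitochondrial enzymes. Shmt2 (ENSMUSG00000025403, chromosome 10, 127352266 to 127358323), which encodes the mitochondrial serine hydroxymethyltransferase that moves a carbon from serine to folate, had 59.0, 58.5 and 47.8 CPM after PBS and 92.9, 136, 125 and 138 CPM after TNF. It rose by 1.16 ± 0.14 on the log2 scale (edgeR adjusted p = 9.67e-06), with no overlap of the groups. Mthfd1l (ENSMUSG00000040675, chromosome 10, 3922870 to 4117081), which encodes the synthetase that releases formate from mitochondria, had 31.6, 30.4 and 26.5 CPM after PBS and 74.5, 77.9, 80.2 and 97.5 CPM after TNF. Its libraries within a group were close to each other, and the log2 fold change was 1.48 ± 0.12 (edgeR adjusted p = 2.3e-07).

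The step between these enzymes in mitochondria is encoded by Mthfd2 and Mthfd2l. Mthfd2 (ENSMUSG00000005667, chromosome 6, 83282673 to 83302890), which encodes the mitochondrial methylenetetrahydrofolate dehydrogenase and is a commonly used marker of ATF4 activity, had 94.9, 84.5 and 64.6 CPM after PBS and 44.3, 57.1, 62.3 and 70.7 CPM after TNF. TNF replicate 4 was above PBS replicate 3, so the groups overlapped. Mthfd2 fell by 0.47 ± 0.16 on the log2 scale (edgeR adjusted p = 0.0215). Mthfd2 was no longer called when PBS replicate 1 (log2 fold change -0.35, adjusted p = 0.113), PBS replicate 2 (-0.44, 0.0669) or TNF replicate 2 (-0.46, 0.0539) was left out. Over its 15 alternatives the adjusted p ran from 0.000474 to 0.113, the lowest in the fit without the filter on low counts. Mthfd2l, which is no member and was named after its values were seen, had 4.76, 4.94 and 5.99 CPM after PBS and 9.01, 8.49, 7.28 and 10.3 CPM after TNF and rose by 0.74 ± 0.21 on the log2 scale (edgeR adjusted p = 0.00776). Aldh1l2, which encodes the mitochondrial enzyme that oxidises formyl-folate, had 36.5, 48.3 and 37.7 CPM after PBS and 32.6, 64.8, 57.7 and 61.6 CPM after TNF. It was not called (log2 fold change 0.41, 95% interval -0.06 to 0.87, edgeR adjusted p = 0.117). Only TNF replicate 1 was below the PBS libraries, and without this library Aldh1l2 was called higher (0.59, adjusted p = 0.000816). It was also called higher without the filter on low counts (0.41, adjusted p = 0.00537). At nearly the same change, the edgeR adjusted p in that fit was far smaller for many members (Psat1, 1.88e-59 against 1.66e-06). For others it was larger (Ddit3, 0.0916 against 0.046), so the call of Aldh1l2 in that fit adds little. Exons of Aldh1l2 overlap Nopchap1 on the other strand, which had 8450 counts and a log2 fold change of 0.67.

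In the cytosol, Mthfd1 (ENSMUSG00000021048, chromosome 12, 76301984 to 76366588), which encodes the trifunctional folate enzyme, had 59.2, 52.2 and 69.7 CPM after PBS and 32.0, 35.1, 41.0 and 37.2 CPM after TNF. All TNF libraries were below all PBS libraries, and Mthfd1 fell by 0.73 ± 0.12 on the log2 scale (edgeR adjusted p = 0.00018). The cytosolic hydroxymethyltransferase gene Shmt1 had 23.5, 37.9 and 38.1 CPM after PBS and 32.9, 27.9, 28.3 and 33.0 CPM after TNF. It was not called, with a log2 fold change of -0.12 and a 95% interval of -0.47 to 0.22 (edgeR adjusted p = 0.529). The TNF libraries lay within the range of the PBS libraries. Exons of Shmt1 overlap those of Smcr8 on the other strand, which had 8729 counts, more than the 3938 of Shmt1.

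To compare enzymes of like function within the same library, log2 ratios of 7 gene pairs were taken (CPM plus 0.5) and compared between groups with an exact permutation test over 35 splits, two-sided, for which 0.0286 is the smallest possible p. These ratios do not depend on how libraries are scaled against each other beyond the added 0.5. The ratio of Mthfd1l to Mthfd1 was -0.89, -0.77 and -1.38 after PBS and 1.21, 1.14, 0.96 and 1.38 after TNF. Mthfd1 thus had more CPM than Mthfd1l in every PBS library and less in every TNF library, a difference of 2.18 (exact permutation p = 0.0286, adjusted over the 7 pairs p = 0.0667). Shmt2 to Shmt1 was 1.31, 0.62 and 0.32 after PBS and 1.49, 2.26, 2.12 and 2.04 after TNF, a difference of 1.23 with the same exact and adjusted p. The mitochondrial Pycr1 against the cytosolic Pycr3, both of which encode enzymes of the last step of proline synthesis, had a ratio higher by 0.98 after TNF, again at p = 0.0286 in the exact test and 0.0667 after adjustment, although Pycr1 itself fell. Pycr3 fell by 1.70 ± 0.17 on the log2 scale (edgeR adjusted p = 1.14e-06).

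For Aldh1l2 against its cytosolic counterpart Aldh1l1, the mean log2 ratio was 0.63 ± 0.11 (SD, n = 3) in the PBS group against 2.04 ± 0.60 (SD, n = 4) in the TNF group, with every TNF library above every PBS library (exact permutation p = 0.0571, adjusted p = 0.08). The ratio of Got2, the mitochondrial aspartate transaminase, to the cytosolic Got1 was below all PBS libraries in 4 of 4 TNF libraries, with means of 1.21 ± 0.24 (SD, n = 3) and 0.40 ± 0.27 (SD, n = 4) (exact permutation p = 0.0571, adjusted p = 0.08). No difference beyond the spread was detected for Mthfd2 to Mthfd1 (0.25, exact permutation p = 0.4) or for Gpt2 to Gpt (-0.90, exact permutation p = 0.229), whose ratio in TNF replicate 4 was 5.03, above the other 3 TNF libraries. Without TNF replicate 4 the difference for Gpt2 to Gpt was -1.40. None of the 7 pairs passed the threshold after adjustment. The eighth pair fixed for this test, Bcat1 to Bcat2, had no counts of Bcat1.

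**Figure D2:**
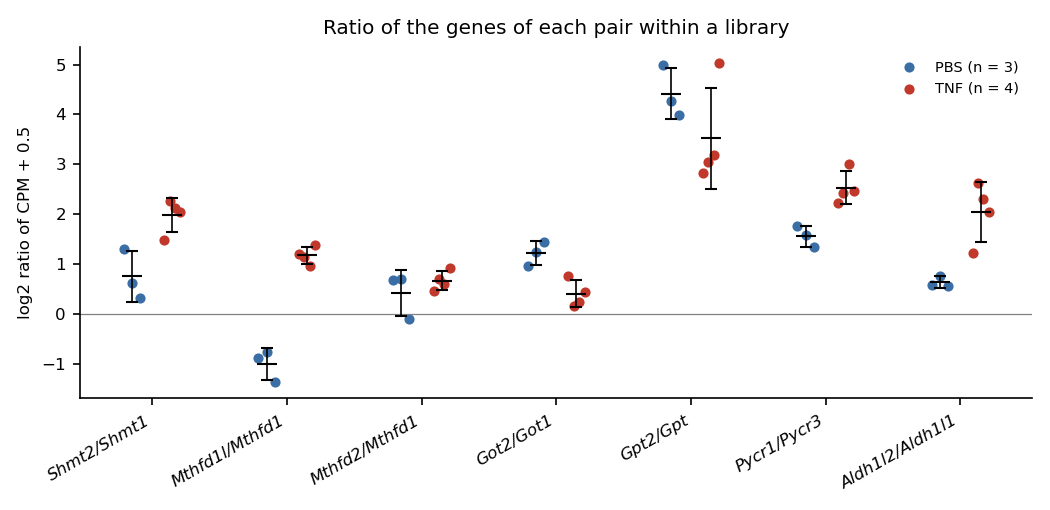
Log2 ratio of CPM plus 0.5 of the first to the second gene of each pair (vertical axis) in each PBS (blue, n = 3) and TNF (red, n = 4) library, with mean and SD in black. The ratio of Mthfd1l to Mthfd1 lies below 0 in all PBS and above 0 in all TNF libraries.

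Among the genes for other amino acids, 3 rose and 4 fell of 7 tested, with a median log2 fold change of -0.48, and the groups did not overlap for any of the 7, beside shares of 29.5% higher, 30.1% lower and 60.7% without overlap over all tested genes. Asns (ENSMUSG00000029752, chromosome 6, 7671667 to 7728461), which encodes asparagine synthetase, had 201, 189 and 154 CPM after PBS and 283, 359, 332 and 379.6 CPM after TNF. It rose by 0.90 ± 0.13 (edgeR adjusted p = 4.56e-05). Got1, which encodes the cytosolic aspartate transaminase, had 21.9, 16.5 and 14.0 CPM after PBS and 25.5, 38.0, 36.6 and 35.1 CPM after TNF, and rose by 0.95 ± 0.18 on the log2 scale (edgeR adjusted p = 0.000357). Cth, which encodes the enzyme that releases cysteine from cystathionine, had 16.4, 20.5 and 18.2 CPM after PBS and 22.1, 33.8, 28.6 and 36.4 CPM after TNF and rose by 0.71 ± 0.17 (edgeR adjusted p = 0.00223). The enzyme before it in that route moved the other way. Cbs (ENSMUSG00000024039, chromosome 17, 31827868 to 31856646), which encodes the enzyme that joins serine and homocysteine, had 31.0, 22.8 and 29.7 CPM after PBS and 5.88, 6.42, 4.82 and 4.78 CPM after TNF. Cbs had the largest fall of the members called lower, -2.34 ± 0.17 as log2 fold change (edgeR adjusted p = 7.22e-08), about 5.07-fold lower.

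Gpt2 (ENSMUSG00000031700, chromosome 8, 86218810 to 86255577), which encodes the mitochondrial alanine transaminase, had 89.7, 86.8 and 74.8 CPM after PBS and 20.8, 26.0, 25.9 and 33.0 CPM after TNF. Every TNF library was below every PBS library, and the log2 fold change was -1.67 ± 0.14 (edgeR adjusted p = 2.63e-07). The proline genes fell too, though by less. Aldh18a1, which encodes the synthase of the first steps from glutamate, had 284, 268 and 254 CPM after PBS and 159.7, 214, 184 and 211 CPM after TNF, a log2 fold change of -0.48 ± 0.12. Pycr1, whose promoter is shown above, had 85.8, 76.0 and 62.7 CPM after PBS and 36.9, 54.0, 51.2 and 45.2 CPM after TNF, a log2 fold change of -0.68 ± 0.14 (edgeR adjusted p = 0.00272 and 0.000929). Bcat1, which encodes the cytosolic branched-chain transaminase, had 0 counts in all 7 libraries, which allows a level of up to 0.0243 CPM from counting error alone (3 counts over all libraries).

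Of the 6 transcription factors and their partners, 4 rose and 2 fell, and none of the 6 had overlapping groups (29.5%, 30.1% and 60.7% of all tested genes rose, fell or did not overlap). Atf4 (ENSMUSG00000042406, chromosome 15, 80139372 to 80141745) had 274, 265 and 229.8 CPM after PBS and 379, 401, 365 and 429 CPM after TNF. It rose by 0.62 ± 0.11 on the log2 scale or 1.54-fold (edgeR adjusted p = 0.000273), the smallest of the 18 rises. Per length, its level of 147 CPM per kb after PBS was second to Nupr1 among the members. Atf5 (ENSMUSG00000038539, chromosome 7, 44461680 to 44466082), which encodes a related factor linked to mitochondrial stress, had 9.33, 11.3 and 8.22 CPM after PBS and 50.3, 62.5, 56.2 and 49.5 CPM after TNF. It rose by 2.50 ± 0.15 on the log2 scale (edgeR adjusted p = 9.23e-09). Exons of Atf5 overlap those of Nup62 and Il4i1 on the other strand, which had 4188 and 2005 counts against 4293 for Atf5 and log2 fold changes of 0.35 and 5.21. Nupr1 (ENSMUSG00000030717, chromosome 7, 126222414 to 126230033), a small stress-induced chromatin protein, was the most abundant member per length in both groups, with 290.4 and 1636 CPM per kb. It had 277, 281 and 164 CPM after PBS and 998, 1472, 1472 and 1484 CPM after TNF, a log2 fold change of 2.49 ± 0.22 (edgeR adjusted p = 6.43e-07). TNF replicate 1 lay below the other 3 TNF libraries but far above PBS.

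Trib3, which encodes a pseudokinase that restrains ATF4 signalling, had 5.44, 4.99 and 2.17 CPM after PBS and 7.72, 10.6, 12.2 and 8.11 CPM after TNF and rose by 1.20 ± 0.30 (edgeR adjusted p = 0.00341). Cebpg, a C/EBP-family partner of ATF4, fell instead. Its level was 69.8, 80.5 and 63.6 CPM after PBS and 35.8, 40.2, 41.7 and 45.3 CPM after TNF, a log2 fold change of -0.81 ± 0.12 (edgeR adjusted p = 4.04e-05). Ddit3 (ENSMUSG00000025408, chromosome 10, 127124268 to 127132163), which encodes CHOP, the factor tied to death under prolonged stress, was scarce. It had 40, 85 and 54 counts after PBS and 38, 27, 29 and 26 counts after TNF, or 2.47, 4.33 and 2.86 CPM after PBS and 2.13, 1.59, 1.55 and 1.70 CPM after TNF. Ddit3 fell by 0.89 ± 0.36 on the log2 scale (edgeR adjusted p = 0.046), with no overlap of the groups. The call was lost when PBS replicate 2 was left out (-0.61, adjusted p = 0.244), or PBS replicate 3 (-0.97, 0.0511). Leaving out TNF replicate 2 (-0.84, 0.0919), replicate 3 (-0.85, 0.0896) or replicate 4 (-0.89, 0.0723) of the TNF group had the same outcome. It was also lost with no filter on low counts (0.0916) and with the replicate number as a block (0.173), and the adjusted p over its 15 alternatives ran from 0.0312 to 0.244. Ddit3 shares exon bases with Mars1 and Mbd6 on the other strand, which had 7940 and 4369 counts against 299, so its level is uncertain. A second identifier of Ddit3 had 0 counts.

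**Figure D3:**
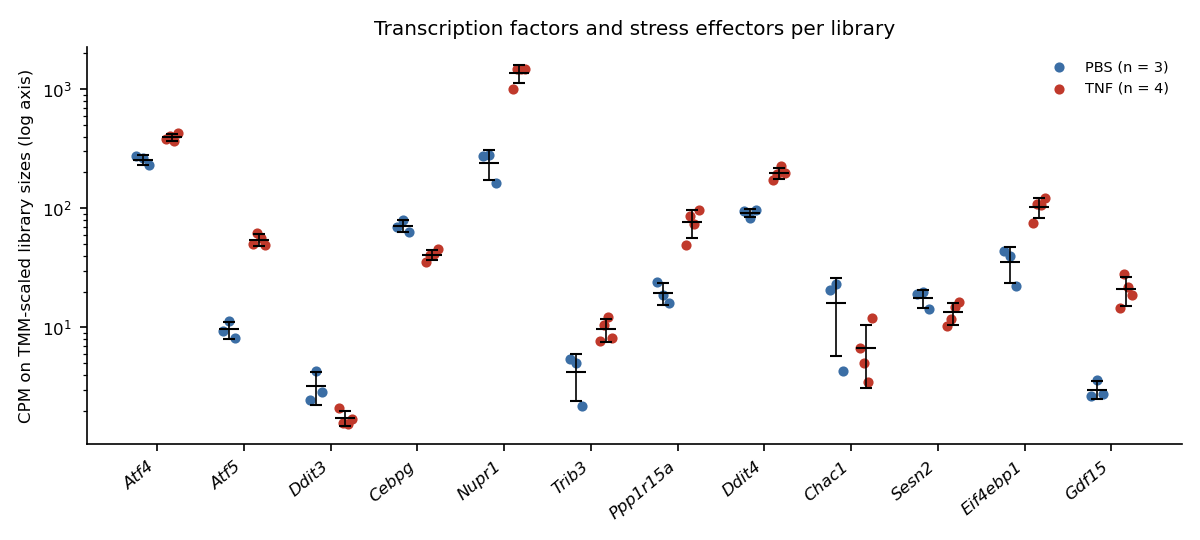
Level in CPM (vertical log axis) of the 6 transcription factors and partners and of 6 stress genes in each library, with PBS in blue (n = 3), TNF in red (n = 4), and mean and SD in black. Atf5, Nupr1, Ppp1r15a and Gdf15 lie well apart between groups, Ddit3 and Cebpg are lower after TNF, and Chac1 spreads widely in both groups.

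Of the 3 genes of the eIF2 arm, 2 rose and none fell (all tested genes: 29.5% and 30.1%). Ppp1r15a (ENSMUSG00000040435, chromosome 7, 45172340 to 45175692), which encodes GADD34, the phosphatase subunit that reverses eIF2 phosphorylation, had 24.0, 18.6 and 16.0 CPM after PBS and 49.1, 86.7, 73.8 and 96.0 CPM after TNF. It rose by 1.97 ± 0.23 on the log2 scale, 3.92-fold (edgeR adjusted p = 1.81e-05), with TNF replicate 1 the lowest of the TNF libraries. Eif2s1, which encodes the phosphorylated subunit itself, had 46.9, 47.0 and 42.7 CPM after PBS and 74.7, 63.8, 75.0 and 97.4 CPM after TNF and rose by 0.77 ± 0.13 (edgeR adjusted p = 0.00021). The groups did not overlap for either gene, as for 60.7% of all tested genes. Eif2s1 shares exon bases with Atp6v1d and Plek2 on the other strand, with 3569 and 1506 counts against 7794, and Plek2 had a log2 fold change of 0.93. Eif2ak4, which encodes GCN2, had 33.8, 35.7 and 38.0 CPM after PBS and 46.9, 48.2, 42.2 and 34.5 CPM after TNF and was not called (log2 fold change 0.26, 95% interval -0.01 to 0.54, edgeR adjusted p = 0.0933). Without TNF replicate 4, the only TNF library within the PBS range, it was called higher (0.34, adjusted p = 0.0243). Its exons overlap those of Srp14, which had 4062 counts and a log2 fold change of -0.29.

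The stress effectors and the secreted or surface proteins gave 4 rises and no call of a fall among 7 tested genes (all tested genes: 29.5% and 30.1%). Gdf15 (ENSMUSG00000038508, chromosome 8, 71082038 to 71091537), a circulating cytokine of the stress response, had the largest rise of the 18. It had 2.66, 3.61 and 2.76 CPM after PBS and 14.7, 28.1, 21.9 and 18.7 CPM after TNF, a log2 fold change of 2.78 ± 0.24 or 6.89-fold (edgeR adjusted p = 3.59e-07). The translation-related genes Ddit4 and Eif4ebp1 rose in every TNF library. Ddit4, which encodes the mTORC1 inhibitor REDD1, had 94.3, 83.1 and 96.7 CPM after PBS and 174, 194, 226 and 199 CPM after TNF and a log2 fold change of 1.12 ± 0.11. Eif4ebp1, which encodes the translation repressor 4E-BP1, had 44.0, 40.1 and 22.2 CPM after PBS and 74.8, 109, 107 and 122 CPM after TNF and a log2 fold change of 1.54 ± 0.24 (edgeR adjusted p = 1.74e-06 and 0.00033). Vldlr, a lipoprotein receptor, had 79.1, 72.5 and 80.0 CPM after PBS and 108, 126, 130.5 and 123 CPM after TNF and rose by 0.66 ± 0.10 (edgeR adjusted p = 8.24e-05), with no overlap of the groups.

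Chac1, which encodes an enzyme that degrades glutathione and is among the most sensitive ATF4 and CHOP targets, had 20.6, 23.1 and 4.30 CPM after PBS and 6.66, 5.01, 3.48 and 11.9 CPM after TNF. PBS replicate 3 lay with the TNF libraries and far below the other 2 PBS libraries, and TNF replicate 4 was the highest of its group. The log2 fold change of -1.25 was not called (95% interval -2.69 to 0.20, edgeR adjusted p = 0.119). Chac1 was called lower without PBS replicate 3 (-1.71, adjusted p = 0.00265), without TNF replicate 4 (-1.67, 0.0285), with scaling by total counts (-1.38, 0.0283) and with the replicate block (-1.43, 0.00589). Sesn2, which encodes a leucine sensor upstream of mTORC1, had 19.2, 19.6 and 14.2 CPM after PBS and 10.3, 11.8, 14.8 and 16.5 CPM after TNF (log2 fold change -0.41, 95% interval -0.81 to -0.00, edgeR adjusted p = 0.077). It was called lower without PBS replicate 3 (-0.55, 0.0299), without TNF replicate 4 (-0.53, 0.0301) and with scaling by total counts (-0.57, 0.0178). Stc2, which encodes a secreted glycoprotein, was scarce, at 1.92, 2.34 and 1.54 CPM after PBS and 3.19, 1.95, 1.39 and 2.49 CPM after TNF, and had an interval of -0.65 to 1.09 (edgeR adjusted p = 0.662). Fgf21, a hormone best known from the liver, had 1, 3 and 0 counts after PBS and 0, 0, 5 and 5 counts after TNF and did not pass the filter.

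**Figure D4:**
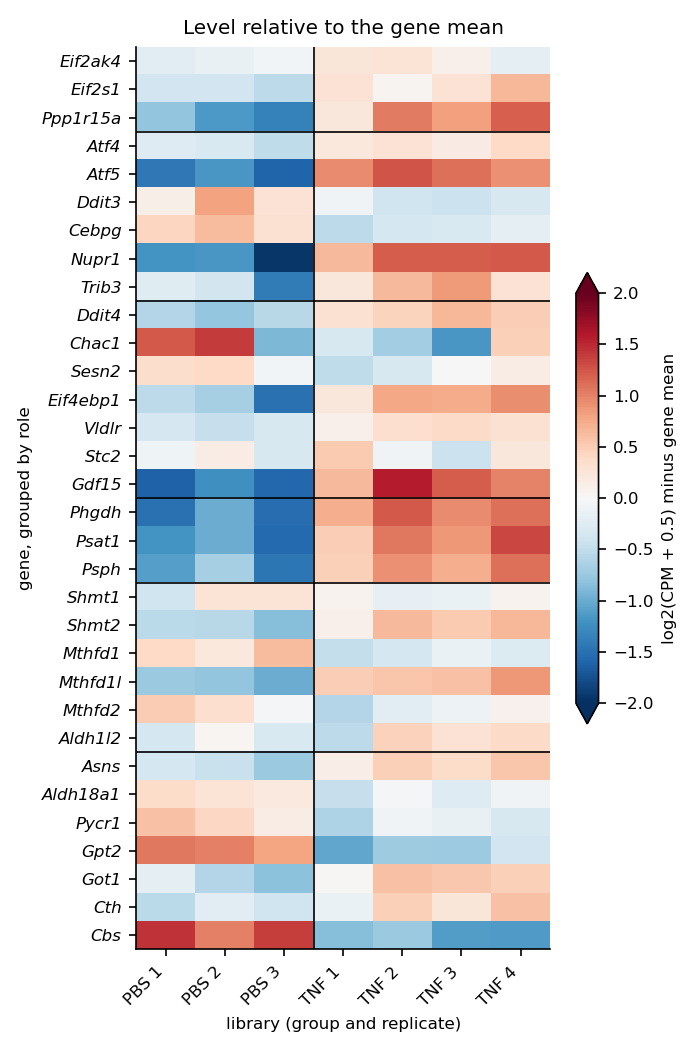
Level of each tested member in each library as log2(CPM plus 0.5) minus the mean of that gene over the 7 libraries, with rows grouped by role and separated by black lines; red is above and blue below the gene mean, and the colour scale ends at 2 in either direction. PBS replicate 3 is the lowest PBS column for 22 of the 32 genes, and TNF replicate 1 the lowest TNF column for 23.

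The libraries of a group were not equally far apart. PBS replicate 3 had the lowest level of the PBS libraries for 22 of the 32 tested members, and TNF replicate 1 the lowest of the TNF libraries for 23. The same libraries had the lowest summed level of 8 PC markers in their groups, 164791 CPM against 201415 and 265373 CPM after PBS, and 158347 CPM against 226347, 196466 and 284363 CPM after TNF. When both libraries were left out, which was chosen after the data were seen, all 18 rises and all 8 falls were still called, and Aldh1l2 was called higher and Chac1 and Sesn2 lower in addition. Leaving out single libraries kept the 18 rises in each of 7 fits and between 6 and 8 of the falls. The median log2 fold change of the members was 0.74 without both libraries.

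Other genes of the same pathways, from lists chosen by function, showed 16 rises and 14 falls among 47 tested of 49, where 29.5% and 30.1% of all tested genes were called in these directions. Of 15 further genes of eIF2 signalling, 7 rose and 2 fell. Eif2ak2, which encodes the RNA-sensing eIF2 kinase PKR, had 33.2, 39.3 and 34.7 CPM after PBS and 95.5, 71.8, 86.0 and 79.0 CPM after TNF and rose by 1.22 ± 0.12 (edgeR adjusted p = 1.31e-06). Rises of at least 2-fold were also found for the stress-induced factors Atf3 (1.53 ± 0.21) and Cebpb (2.16 ± 0.19), for the eIF2 subunit gene Eif2s2 (1.24 ± 0.15) and for Eif2b2 of the exchange factor eIF2B (1.02 ± 0.13). Their edgeR adjusted p was at most 2.36e-05, and the groups did not overlap.

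Of 17 further genes of the folate cycle and of glycine cleavage, 16 were tested, 3 rose and 6 fell (all tested genes: 29.5% and 30.1%). Aldh1l1, which encodes the cytosolic counterpart of Aldh1l2, had 24.4, 28.2 and 25.3 CPM after PBS and 13.8, 10.1, 11.4 and 14.5 CPM after TNF and fell by 1.06 ± 0.15 on the log2 scale (edgeR adjusted p = 3.81e-05). Amt, which encodes the aminomethyltransferase of glycine cleavage and was named after its values were seen, had 21.3, 19.7 and 16.4 CPM after PBS and 1.90, 1.59, 1.66 and 1.18 CPM after TNF, a log2 fold change of -3.58 ± 0.21 (edgeR adjusted p = 1.02e-08). Gldc, the decarboxylase of the same complex, had at most 0.247 CPM in any library. Of 17 further genes of transamination, proline, cysteine and glutamine metabolism, 16 were tested, 6 rose and 6 fell, beside 29.5% and 30.1% of all tested genes. Gclc, which encodes the catalytic subunit of glutathione synthesis, had 74.7, 67.1 and 55.7 CPM after PBS and 311, 326, 340.4 and 318 CPM after TNF, a rise of 2.30 ± 0.12 (edgeR adjusted p = 3.79e-09). Falls of at least 2-fold at a mean of at least 10 CPM were those of Oat (-2.03 ± 0.14), which encodes the ornithine aminotransferase, of the mitochondrial branched-chain transaminase gene Bcat2 (-1.52 ± 0.21) and of Pycr3, with an edgeR adjusted p of at most 5.29e-05 for these 3 genes.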

How the data were processed

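The submitters sequenced RNA of sorted PCs (Element AVITI, single-end), and the authors deposited raw counts of reads per Ensembl gene for 3 PBS and 4 TNF libraries. The submitters' processing notes name FastQC, Trimmomatic 0.39, STAR 2.7.10a and DESeq2, and the builds mm10 and mm39. The strand setting, counting program and annotation release were not given in the sources used here. Symbols, positions and lengths of canonical transcripts were taken by identifier from GENCODE M39 (GRCm39), which held 54749 of 55414 identifiers, and promoter windows from RefSeq.

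Counts were tested in R 4.3.3 with edgeR 4.0.16 (filterByExpr, TMM, robust quasi-likelihood fit of all 7 libraries, two-sided), which left 14329 genes. The SE was derived from the change and the F statistic. The test was checked on simulated data in which far fewer genes changed than were called here, equally up and down. That check does not cover scaling or error rates when most genes change. Alternatives were DESeq2 1.42.0, its size factors in edgeR, scaling by total counts or without alpha-defensins and Lyz1, no filter, a filter of 1 CPM in 3 libraries, the replicate block, pseudocounts of 0.1 and 2 CPM in the ratios, and leaving out libraries. No pair of libraries within a group agreed within sampling noise (chi-square over its degrees of freedom, 16.7 or more). Library totals ran from 15511455 to 19193721 counts, and floors of 3 counts cover counting error only. Each member is named, and genes of the other lists when called with a change of at least 2-fold and a mean of at least 10 CPM, except some that are not reported here. The members and lists were chosen with earlier results of these data known. The permutation tests used scipy 1.17.1.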

Additional observations from a re-analysis of the deposited data

Results flagged for a closer look

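In the group of 4 TNF libraries, the highest or lowest library stood apart from the others for 2 of 39 values (32 members and 7 pair ratios), when its gap to the nearest library was divided by the range of the group and compared with Dixon's 95% critical value for 4 values. Chance gives about 1 in 20. For Nupr1 this ratio was 0.975, because TNF replicate 1 had 998 CPM and the other 3 libraries had 1472 to 1484 CPM. For the log2 ratio of Gpt2 to Gpt it was 0.836, because TNF replicate 4 had 5.03 and the other 3 had 2.82 to 3.18. Gpt is scarce, with 0.524 CPM in that library. The cause of either value was not tested. Groups of 3 libraries, such as PBS, were not examined in this way.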

How the results depend on the processing

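Over 15 alternatives, the number of genes called over the whole table ran from 7131 to 9080 (8543 as reported), the number of members that rose from 18 to 19 and of those that fell from 6 to 10. All 18 rises were called under each of the 15. Scaling by total counts moved the median log2 fold change of the members from 0.68 to 0.50, and that of all tested genes to -0.16. With the replicate number as a block (replicate block), 7131 genes were called, 18 members rose and 8 fell, among them Chac1 (-1.43) in place of Ddit3 (-0.85), and the block changed no other call of a member. Deviations from the group means had correlations of -0.299, -0.0314 and -0.174 between same-numbered PBS and TNF libraries (numbers 1, 2 and 3). The highest correlation of any PBS with any TNF library was 0.35, for PBS replicate 3 with TNF replicate 1. With 3 and 4 libraries, deviations within a group depend on each other, so these values cannot tell whether libraries were paired or shared a batch. Of 480 values of single members under the alternatives, 456 kept their direction and their side of the threshold, 13 became called, 10 lost their call and 1 reversed. The reversed value was that of Stc2 (-0.14 without PBS replicate 3 and TNF replicate 1 together), which was not called in either fit, and the cause was not tested. The difference in the ratio of Mthfd2 to Mthfd1 ran from -0.017 to 0.38 when single libraries were left out, the lowest without PBS replicate 3. With 3 and 4 libraries, intervals cover the spread between these libraries only.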
